A study of Mus musculus with 267 samples.

Results

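In C57 bone marrow-derived macrophages given interleukin-4 (IL-4) for 24 h, most binding sites of the nuclear receptor PPARg that were not listed before treatment lay apart from the transcription factor EGR2. Of 39088 PPARg peaks in the 24 h list, 22974 (58.8%) shared not 1 base with a peak of the basal PPARg list or with a peak of the 24 h EGR2 list, and these are described here as gained sites without EGR2. The other peaks of that list were 9851 gained sites with EGR2, 3885 sites kept from the basal list without EGR2 and 2378 kept sites with EGR2. The lists of basal and 24 h PPARg and of 24 h EGR2 chose the sites, so nothing about these lists is a finding.

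The macrophages were grown from the bone marrow of C57BL/6J mice (C57) for 7 days in medium with M-CSF. They carried no engineered allele, and the labels name no age. They were left untreated (basal) or given 20 ng/ml of mouse IL-4 for 1, 6 or 24 h, and chromatin immunoprecipitation with sequencing (ChIP-seq) mapped each protein or histone mark on the DNA. Of the 267 samples of the series, the tables used here gave H3K27ac in 2 libraries at each of the 4 times, H3K4me2 and H3K4me3 in 2 basal and 2 libraries at 24 h, and RNA polymerase II (Pol II) in 4 basal libraries and 3 at 24 h. PPARg, EGR2, STAT6, PU1 and CEBPb entered as 1 peak list per strain and condition, each made from replicate libraries, so replicates of a list could not be compared. PPARg and EGR2 lists at basal and 24 h of 4 other inbred strains were used for comparison, namely SPRET/EiJ (here SPRET), BALB/cJ (BALB), PWK/PhJ (PWK) and NOD/ShiLtJ (NOD).

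PPARg binds DNA as a partner of the receptor RXR at direct repeats of AGGTCA with a single base between them, called DR1, and is known for control of genes of fatty acid uptake and storage. In macrophages IL-4 activates STAT6, which induces both PPARg and EGR2, and PU1 and CEBPb are factors that set up macrophage enhancers. H3K27ac marks active enhancers and promoters, H3K4me2 marks enhancers and promoters, H3K4me3 marks promoters, and Pol II marks transcription.

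The sites had lower PPARg peaks than the other peaks of the same list. Their median peak height, the tag count the peak caller deposited for a peak, was 19 (5.71 to 372.8, quartiles 14.3 and 26.6), against 23.8 at gained sites with EGR2, 55.2 at kept sites without EGR2 and 73.2 at kept sites with EGR2. They made up 43.4% of the 19544 peaks above the middle of the list by height and 74.1% of those below it. At the edge of the rule, 577 sites had an EGR2 peak less than 100 bp away without touching it, with a median height of 20.9, and 1432 peaks that overlapped an EGR2 peak by less than 100 bp were left out, with a median of 21.9. The corresponding edge of the basal PPARg list held 92 sites inside the rule, with a median height of 31.8, and 332 peaks outside it, with a median of 37.1. The median distance from a site to the nearest EGR2 peak was 10465.5 bp, and 8.98% of the sites lay within 500 bp of one.

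EGR2 peaks were rare at the sites in the C57 lists of other times and less rare in the lists of other strains. The rule split the sets by the 24 h EGR2 list of C57, so their shares at other C57 times are not independent of the rule. EGR2 peaks of the basal, 1 h or 6 h lists overlapped 1.88% of the sites, against 56.8% of gained sites with EGR2. A 24 h EGR2 peak of at least 1 other strain overlapped 14.7%, against 80.2%, and 87 sites had one in all 4 strains. In a separate table of EGR2 tags at 30675 merged sites, 409 touched a gained site without EGR2, and their median at 24 h was 55.2 and 41.3 normalized tags in 2 libraries, against 44.0 and 32.6 over all merged sites, so low EGR2 signal cannot be assumed at those. A basal PPARg peak of at least 1 other strain lay at 39.2% of the sites, from 5.76% in BALB to 22.2% in PWK, so that gained refers to C57 alone. Lists differ in size, which depends on the libraries behind them, and the basal PPARg lists ran from 6524 peaks in BALB to 19684 in SPRET.

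To show the DNA under the sites, the bases around the best DR1 match are printed for the 5 named sites (chosen by peak height or by gene list) whose match had at most 2 mismatches to AGGTCA, any base, AGGTCA at its 12 fixed letters. Each is 30 bases of mm10 from the RefSeq genome, written 5′ to 3′ on the strand of the match, and capitals mark the 13 bases matched to DR1. The first lies in an intron of Rab20 at chr8:11464537-11464566, minus strand, and the second in an intron of Scamp2, with the start of Ulk3 as the nearest coding start, at chr9:57577532-57577561, plus strand. The third lies between genes near Tgm2 at chr2:158149875-158149904, plus strand, the fourth within 1 kb of the start of Socs2 at chr10:95417973-95418002, plus strand, and the last in an exon of Neu1 at chr17:34934914-34934943, minus strand.
Rab20: cagaagggAGGGCAAAGGTCGttctttcta
Scamp2: aggggtgtGGGTTAGAGGTCAtgttgcaga
Tgm2: attcccgtAGGGCAAAGGTCCctgggccag
Socs2: agcttgaaAGGTCAATGGCCActtttagtt
Neu1: gttgcaaaAGGTCAGAGTTCAgaggaagag
The site in Neu1, which encodes a lysosomal sialidase, had 1 mismatch and the other 4 had 2.

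DR1 was more frequent under these sites than in open chromatin as a whole and than at gained sites with EGR2. A match with at most 2 mismatches on either strand lay in the 200 bp around the centre of 2760 sites (12.01%). The share was 4.53% at gained sites with EGR2, 19.4% at kept sites without EGR2, 11.6% at kept sites with EGR2 and 3.03% of all 67742 open chromatin regions. Perfect matches lay at 163 sites (0.710%) and at 27 open regions (0.0399%). Among the perfect matches AGGTCAGAGGTCA was found at 87 sites, AGGTCAAAGGTCA at 59, AGGTCACAGGTCA at 10 and AGGTCATAGGTCA at 7. In the 2760 best matches the sixth letter, A, was kept most often (95%) and the fourth, T, least often (69.3%), and the spacer was A in 42.5% and G in 37.1%. These shares are descriptions over sites that are not replicates, and a match is not proof of binding.

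**Figure D1:**
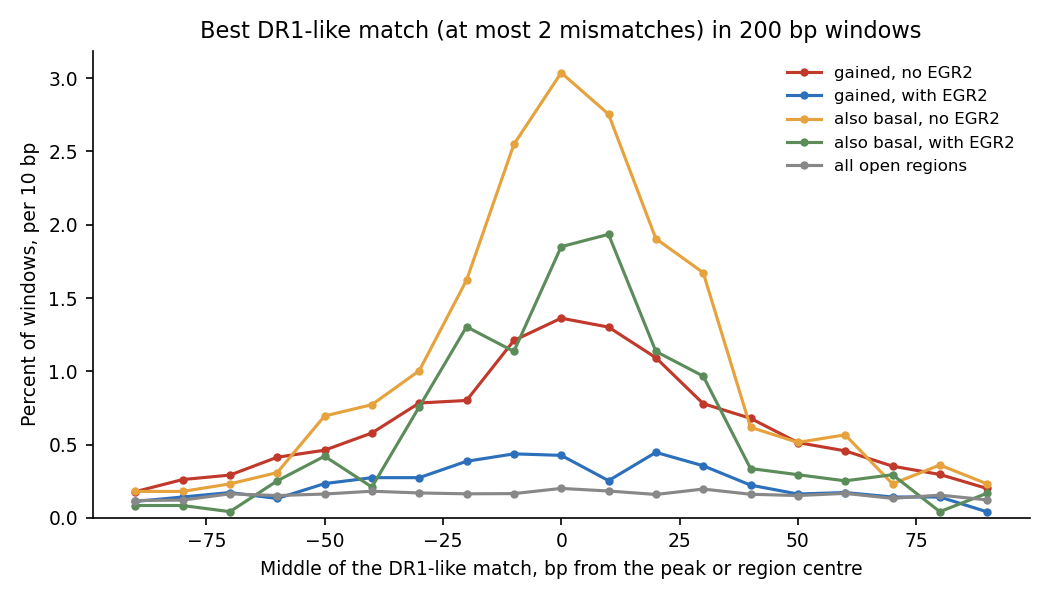
Position of the middle of the best DR1 match (at most 2 mismatches) from the peak or region centre in bp, as a percent of all 200 bp windows of a set per 10 bp, for the 4 sets of 24 h PPARg peaks (also basal means kept) and all open regions. At gained sites without EGR2 the middle point stands at 1.36%, against 0.201% of all open regions, whose line is nearly flat.

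The matches were centred on the peaks. The middle of the best match lay within 25 bp of the peak centre at 1353 of the 2760 sites (49.0%), against 29.5% (605 of 2051) in all open regions. At kept sites without EGR2 the corresponding share was 62.3%. The plot of match position shows a peak at the centre of the gained sites and a flat course in open chromatin.

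Other motifs separated the sites with and without EGR2 less than DR1 did, apart from those of EGR and KLF. The EGR motif GCGTGGGNG lay at 0.239% of gained sites without EGR2, 2.45% of those with EGR2 and 1.12% of all open regions. The rule split the sets by EGR2 peaks, so the difference in the EGR motif is not independent of it. The KLF motif GGGNGGGGC lay at 3.06%, 7.65% and 8.02%, in the same order. Both motifs are rich in G and C, and gained sites without EGR2 lay within 1 kb of a gene start less often (10.7%, against 23.3% with EGR2 and 25.2% of all open regions). The motifs of PU.1 (GAGGAAGT) at 8.0%, AP-1 (TGANTCA) at 16.6%, C/EBP (TTGCNNAA) at 12.3%, STAT6 (TTC, any 4 bases, GAA) at 6.85%, RUNX (TGTGGTT) at 7.78% and IRF (GAAA, any 2 bases, GAAA) at 3.79% stood beside 9.11%, 20.0%, 15.5%, 7.71%, 8.38% and 3.31% of gained sites with EGR2 and 8.42%, 16.9%, 11.9%, 4.73%, 6.41% and 2.52% of all open regions. The DR4 repeat (AGGTCA, any 4 bases, AGGTCA, at most 2 mismatches), to which LXR binds with RXR, lay at 3.56% of the sites, 2.46% of gained sites with EGR2 and 2.55% of open regions. The letters TGC followed directly by the AP-1 letters, bound by MAF and NRF2, lay at 1.32% (1.29% with EGR2 and 1.45% of open regions), and TCACGTGA, bound by TFE and MITF, at 0.257% (0.426% and 0.391%). Letters were searched on both strands, so each MAF match also counts as an AP-1 match.

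Most of the sites lay away from gene starts. Introns held 44.9%, stretches between genes 41.9% and exons 2.57%, and the median distance to the nearest start of a coding gene was 17.3 kb, against 11.2 kb at gained sites with EGR2 and 9.02 kb for all open regions.

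Many of the sites had no open chromatin region near them. An open region, 1000 bp around a peak of chromatin accessibility in C57, had its centre within 500 bp of 49.96% of the sites (exact 95% binomial interval 49.3% to 50.6%), against 90.6% of gained sites with EGR2, 67.1% of kept sites without EGR2 and 96.4% of kept sites with EGR2. The 11397 regions reached were open in both lists in 55.2% of cases, at 24 h alone in 9.77% and in the basal list alone in 35.01%. The shares over all open regions were 52.3%, 17% and 30.7%. Sites near an open region had a median PPARg height of 20.0 and the others 18.1. Histone marks and Pol II were counted in open regions, so the results on marks below hold for these 11397 regions. A region of 1000 bp can hold an EGR2 peak that does not touch the site. Of the 11397 regions, 110 were also regions of gained sites with EGR2.

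Sites with the closest DR1 matches were the least often in open chromatin. Of the sites with a perfect match, 21.5% lay near an open region, and the share was 25.3%, 33.0%, 46.7%, 54.7% and 55.1% with 1, 2, 3, 4 and 5 mismatches. PU1 at 24 h followed the same order, from 14.7% of sites with a perfect match to 56.7% with 5 mismatches, and STAT6 ran from 4.91% to 40.3%. The PPARg peak itself showed no such order, with median heights of 18.1, 20.9, 20.9, 20.0, 19 and 17.1 at 0, 1, 2, 3, 4 and 5 mismatches. Of the perfect matches, 57.1% (93 sites) were soft-masked as repeats in the reference genome, against 8.13% of the best matches of all the sites. Among the 2350 sites with DR1 outside soft-masked bases 31.7% lay near an open region, against 52.6% of the sites without DR1. The part of repeats in the order was not tested.

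Fewer of these sites than of gained sites with EGR2 carried the other macrophage factors. At 24 h PU1 peaks overlapped 49.7%, STAT6 peaks 33.6% and CEBPb peaks 26.6%, against 79.4%, 80.1% and 58.4% of gained sites with EGR2. All 3 factors met at 15.1% of the sites, against 46.3%, and none of the 3 at 40.5% (9304 sites), against 7.13%. PU1 alone was found at 16.6%. In all open regions, read over the same 200 bp, the shares were 58.3%, 42.7% and 34.7% at 24 h.

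**Figure D2:**
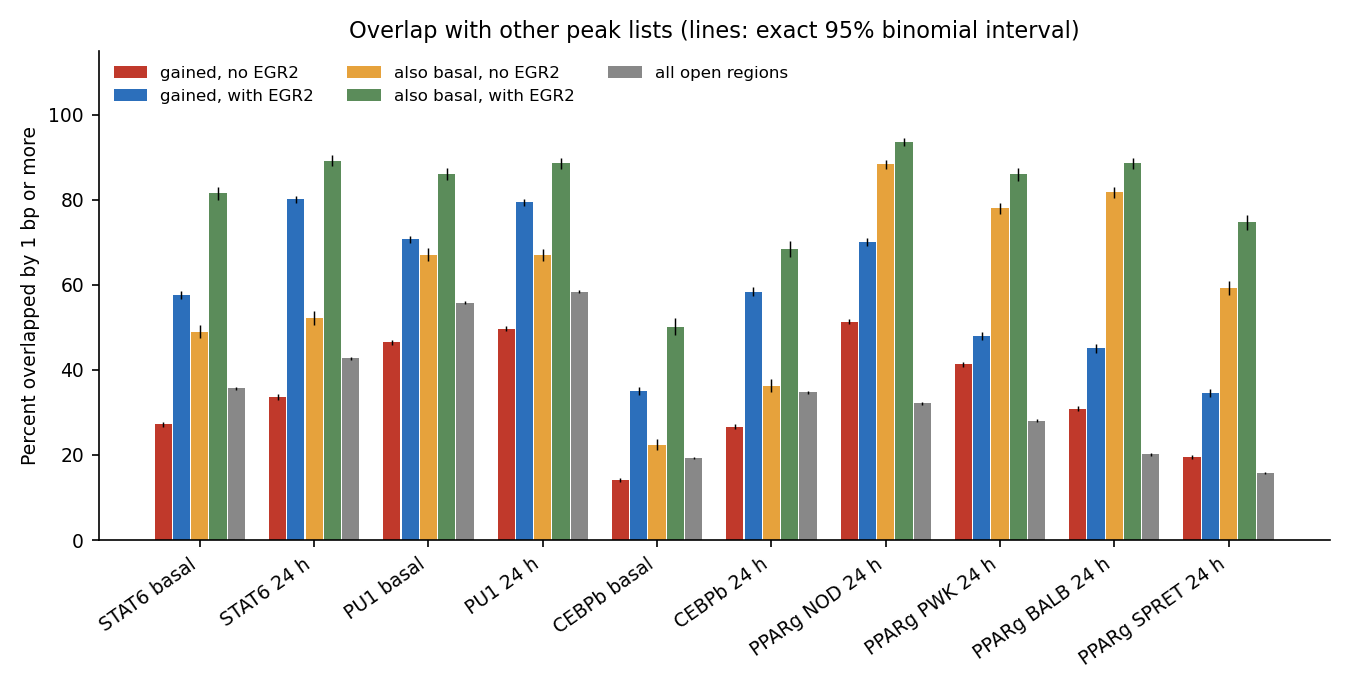
Percent of sites overlapped by at least 1 base of a peak of STAT6, PU1 or CEBPb in C57 (basal and 24 h) or of 24 h PPARg in 4 other strains, for the 4 sets of 24 h PPARg peaks (also basal means kept) and all open chromatin regions, with exact 95% binomial intervals as lines. Gained sites without EGR2 stand lowest of the 5 sets in each list of STAT6, PU1 and CEBPb shown, and above all open regions in each PPARg list. Only 49.96% of these sites lay near an open region.

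The other factors were in part present before IL-4. STAT6 peaks of the basal list lay at 27.2% of the sites, of the 1 h list at 19.6% and of the 6 h list at 19.4% (35.7%, 27.6% and 29.8% of all open regions), with 24376 peaks in the 1 h list and 39537 in the 24 h list. PU1 overlap was 46.5% at basal (55.8% of all open regions), and 6.74% of the sites had PU1 at 24 h without PU1 at basal. CEBPb overlap was 14.1% at basal (19.3% of all open regions), and 13.2% of the sites had CEBPb at 24 h alone, while 12.02% had STAT6 at 24 h without STAT6 at basal. The corresponding shares of gained sites with EGR2 were 11.7% for PU1, 24.3% for CEBPb and 26.2% for STAT6, and those of all open regions 6.87%, 16.1% and 13.7%. Each of the 3 shares at the sites stood below that of all open regions, but only 49.96% of the sites lay near an open region. In the central 200 bp of the open regions at these sites, gained STAT6 lay at 15.4%, gained PU1 at 6.27% and gained CEBPb at 19.4%. STAT6 of both lists lay at 40.3% of them (29.0% of all open regions), PU1 at 64.2% (51.5%) and CEBPb at 23.6% (18.6%). CEBPb lists held 18043 peaks at basal and 37499 at 24 h, and the part of list size in these gains was not tested.

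PPARg was found at many of the sites in other strains, whose libraries the rule did not use, but these sites were the least shared of the 24 h list. A 24 h PPARg peak overlapped 51.3% of the sites in NOD, 41.3% in PWK, 30.9% in BALB and 19.5% in SPRET, against 32.2%, 28.0%, 20.1% and 15.7% of all open regions in C57. Of the sites, 27.03% had a 24 h peak in no other strain, 30.8% in 1, 21.4% in 2, 13.5% in 3 and 7.18% in all 4. The median height in C57 was 16.2, 17.1, 20.9, 26.6 and 38.0 in the same order. With the sites cut into 5 groups of equal size by height, from the lowest to the highest, the share with a peak in another strain went from 56.5% to 94.6% and the share near an open region from 39.7% to 61.4%. DR1 went from 10.5% to 16.8% over the same groups, while the 3 middle groups lay between 10.3% and 11.9%.

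The H3K27ac libraries at basal and 24 h held 11780899 to 15236793 tags, and values are normalized tags, scaled to 10000000 tags per library. In the labelled cell type, the starts of all 7 macrophage markers had an open region, with summed H3K27ac of 3815 to 3942 normalized tags at basal and 1774 to 1906 at 24 h. The markers of T cells and neutrophils had none. Of the B cell markers Cd79a had no region and Ms4a1 held nearly all of the signal of 86.2 to 95.5 at basal and 31.4 to 57.8 at 24 h. Fibroblast markers summed to at most 5.10 and adipocyte markers to 2.14 to 7.64, with no region at Adipoq or Lep. The share of H3K27ac tags that fell inside open regions was 65.4% and 59.6% in the basal libraries and 43.2% and 38.2% in the 24 h libraries. The 24 h values are therefore lower in open regions as a whole, and the part of this share in the falls below was not tested.

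Gains of H3K27ac were not more frequent at these sites than in open chromatin at large. A region was called by the fold rule when its basal and 24 h means, each plus 1, stood 2.5-fold or more apart and the larger mean reached 16 normalized tags (8 for Pol II). Between basal and 24 h, 391 of the 11397 regions were higher (3.43%, against 3.46% of all open regions) and 1140 were lower (10.0%, against 7.55%). Regions at gained sites with EGR2 were higher in 8.51% and lower in 7.42%. In 16.7% of the regions both 24 h libraries lay above both basal libraries, against 18.8% of all regions, and in 38.7% below, against 34.8%. The median log2 ratio was −0.38 (all regions −0.28). With libraries scaled by the median ratio over regions, where the median log2 ratio was −0.05 and that of all regions 0.03, 603 regions were higher and 503 lower. Of all 67742 open regions 3541 were higher and 2179 lower with this scaling.

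With the basal and 24 h libraries alone and not paired, the test across all regions made no call. A fit that pairs them by replicate number, on 2 pairs, did make calls, which are given with the alternatives of processing below. limma on log2(normalized tags + 1) with Benjamini-Hochberg adjustment over 67742 regions called 0 of these regions with 2 libraries a group, while 658 higher (5.77%) and 2053 lower (18.01%) regions had an unadjusted p under 0.05, against 6.91% and 15.1% of all regions. On reads recovered from the tags, edgeR called 48 higher and 5 lower (0.421% and 0.0439%, against 0.385% and 0.0148% of all regions). DESeq2 called 242 higher and 144 lower (2.12% and 1.26%, against 2.16% and 0.909% of all regions). The library medians over the regions were 30.5 and 32.8 normalized tags at basal and 22.9 and 26.3 at 24 h.

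Pol II moved at fewer of the regions. By the fold rule 210 were higher (1.84%, against 1.57% of all regions) and 226 were lower (1.98%, against 1.66%). limma with Benjamini-Hochberg adjustment called 35 higher (0.223% of all regions) and 9 lower (0.096%), and with the replicate numbers as a block to pair the libraries 54 higher and 46 lower (0.415% and 0.394% of all). The call count was 0 without 24 h replicate 2 and 132 without basal replicate 1. Both H3K27ac and Pol II were higher by the fold rule at 129 regions (1.13%, against 0.936% of all) and lower at 167 (1.47%, against 1.14%).

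H3K4me2 and H3K4me3 were called at few of the regions. H3K4me2 was higher at 24 regions and lower at 124 by the fold rule (0.387% and 1.27% of all regions). This balance turned to 135 higher and 2 lower with median-ratio scaling, which gave 1240 and 8 over all 67742 open regions. limma with Benjamini-Hochberg adjustment called 10 higher and 6 lower (0.179% and 0.0576% of all). The library medians were 45.7 and 44.3 at basal but 35.6 and 22.7 at 24 h, and 24 h replicate 2 had 18.9% of its tags in open regions, against 27.2% in replicate 1. Without that library 78 regions were lower, and without replicate 1 2384 were. H3K4me3 was higher at 48 regions and lower at 27 (0.639% and 0.179% of all), with no call by limma without pairing. In that fit 899 higher (7.89%) and 867 lower (7.61%) regions had an unadjusted p under 0.05, against 7.62% and 11.9% of all regions. For H3K4me3 edgeR called 18 higher and 8 lower (0.192% and 0.0812% of all) and DESeq2 21 higher and 21 lower (0.211% and 0.205% of all).

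In the C57 time course the count of regions with higher H3K27ac was greatest at 6 h. The table holds 77955 regions, of which 12863 lay at these sites, and its basal and 24 h H3K27ac libraries are those of the table above. By the fold rule 289 regions were higher at 1 h, 642 at 6 h and 518 at 24 h (2.31%, 5.59% and 3.77% of all regions), and 3334, 1623 and 1214 were lower (20.6%, 8.63% and 7.09%). limma with 1 fit over the 8 libraries and Benjamini-Hochberg adjustment called 160 higher and 1415 lower at 1 h, 297 and 473 at 6 h, and 164 and 53 at 24 h. The percent called over all regions was 1.37 higher and 8.36 lower at 1 h, 2.67 and 2.46 at 6 h, and 1.13 and 0.327 at 24 h. The 3 contrasts share the basal libraries. At 1 h replicate 2 had 20.5% of its tags in regions, against 44.0% in replicate 1, and with median-ratio scaling the counts were 661 higher and 836 lower at 1 h, 758 and 1150 at 6 h and 682 and 565 at 24 h. With this scaling the counts over all 77955 regions were 4045 higher and 3655 lower at 1 h. They were 4932 and 4725 at 6 h and 3811 and 2499 at 24 h.

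Regions that were higher at 1 time were often not so at another. Of the 830 regions higher at any time (6.45%, against 7.02% of all), 185 were higher at all 3 times, 218 at 6 h alone and 145 at 24 h alone. Of the 3664 lower at any time (28.5%, against 22.7%), 773 were lower at all 3 times and 1660 at 1 h alone.

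H3K27ac was higher more often where STAT6 or PU1 was gained together with PPARg. Where STAT6 was in the 24 h list and not in the basal list, 193 of 1759 regions (10.97%) were higher and 71 (4.04%) lower by the fold rule, against 13.1% and 3.19% of all open regions with the same change of STAT6. Where STAT6 was in both lists, 1.81% were higher and 16.8% lower, against 2.01% and 14.7%. The corresponding values for gained PU1 were 12.3% higher and 2.66% lower (14.1% and 2.71% of all), and for gained CEBPb 5.98% and 8.02% (7.83% and 6.28% of all). In each class the share of higher regions at gained PPARg sites stood within a few percentage points of the share in all open regions of that class.

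**Figure D3:**
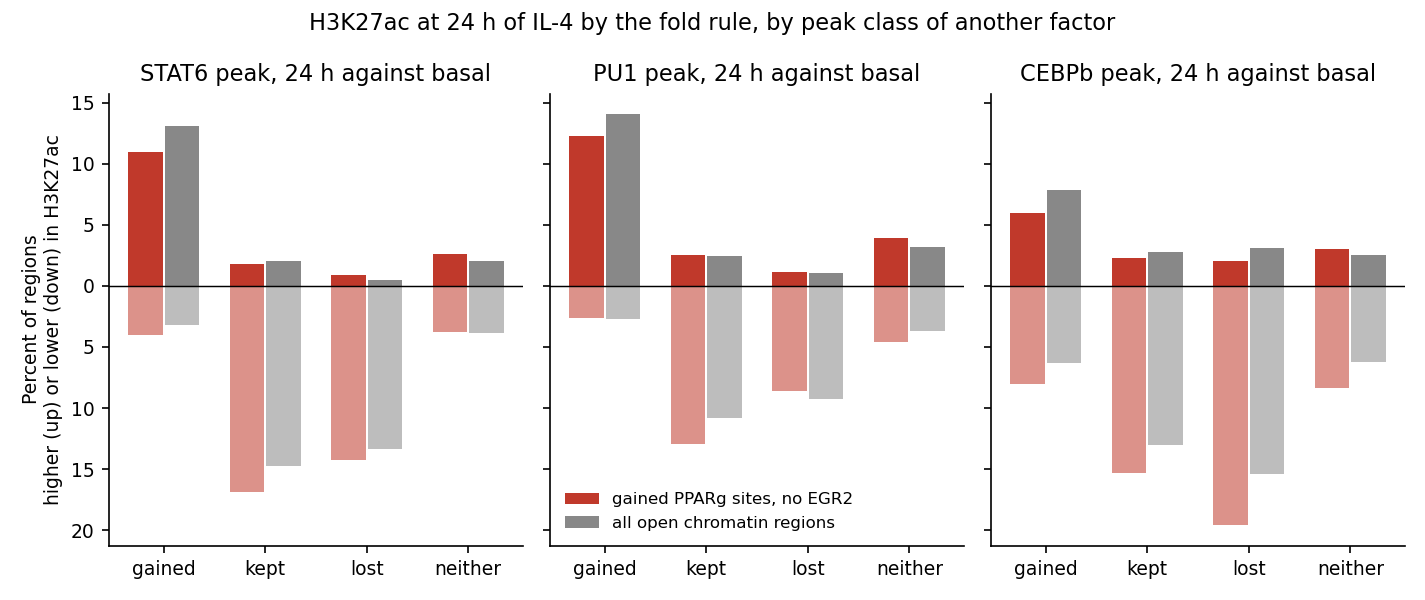
Percent of open chromatin regions with higher (bars up) and lower (faded bars down) H3K27ac at 24 h by the fold rule, where STAT6, PU1 or CEBPb was gained, kept, lost or absent in both lists. Regions at gained PPARg sites without EGR2 (red) and all open regions (grey) take similar values in most classes, with 10.97% and 13.1% higher where STAT6 was gained.

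Height, DR1 and sharing between strains also went with H3K27ac. In the highest of the 5 groups by PPARg height 5.33% of regions were higher, against 2.40% to 3.14% in the other 4. Regions with DR1 (at most 2 mismatches) were higher in 5.24% and lower in 7.26%, against 3.29% and 10.2% of regions without DR1. With a 24 h PPARg peak in all 4 other strains 5.75% were higher and 7.87% lower. With a peak in no other strain the shares were 3.42% and 10.7%. Regions with none of the 3 factors were higher in 2.89% and lower in 5.35%, and regions within 1 kb of a start in 0.839% and 6.82%. The 100 sites with the highest PPARg peaks (at least 101.8) had 53 regions. Of these 14 (26.4%) were higher and 1 (1.89%) was lower, against 3.46% and 7.55% of all open regions. The median log2 ratio of the 53 regions was 0.60. Of the 100 sites 74 had a peak in all 4 other strains and 31 a DR1 match. The separate parts of height, DR1 and sharing were not tested.

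The 5 highest PPARg peaks among the sites lay at Rab20, Lclat1, Scamp2, Nav2 and Rtf2. The highest, of 372.8, lay in an intron of Rab20, a small GTPase of vesicle traffic, at chr8:11464448-11464648. All 8 lists of STAT6, PU1 and CEBPb had a peak there. H3K27ac of the time course there was 607.9 and 378.6 at basal, 266.7 and 76.1 at 1 h, 352.7 and 297.0 at 6 h, and 393.9 and 186.4 at 24 h. The basal and 24 h libraries overlapped, and no contrast passed limma.

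The site at Nav2, which encodes a cytoskeletal protein of neurite growth, passed limma in H3K27ac at 6 and 24 h. It lay in an intron at chr7:49314979-49315179 with a height of 226.3, and STAT6 was at it from 1 h on. H3K27ac was 2.71 and 4.99 at basal and 82.3 and 114.2 at 24 h, a log2 ratio of 4.36, and the time-course limma gave Benjamini-Hochberg adjusted p = 0.0626 at 1 h, 0.016 at 6 h and 0.00134 at 24 h. Pol II at this region was 34.0, 8.19 and 15.4 at 24 h and 6.86, 15.2, 12.3 and 14.2 at basal, with overlapping groups.

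At the site 70808 bp from Lclat1, an enzyme of phospholipid remodelling, H3K27ac likewise passed limma at 6 and 24 h. The peak of 315.7 at chr17:73037077-73037277 had H3K27ac of 4.75 and 11.4 at basal and 78.1 and 185.1 at 24 h. In the time course the 1 h libraries (13.1 and 6.88) overlapped the basal ones, and limma gave adjusted p = 0.744 at 1 h, 0.0353 at 6 h and 0.00358 at 24 h after Benjamini-Hochberg adjustment. At Scamp2, a membrane traffic protein, the peak was 285.3 and H3K27ac was 22.1 and 63.7 at 24 h against 2.04 and 7.84 at basal. At Rtf2, a protein of replication fork control, the peak of 214.0 lay 868 bp from the start, no other C57 list had a peak, and H3K27ac was 41.6 and 104.3 at 24 h against 65.8 and 100.5 at basal.

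The 5 largest gains of H3K27ac lay at sites other than those of the 5 highest PPARg peaks. Near Ang5, a ribonuclease of the angiogenin family, at chr14:43965978-43966178, H3K27ac was 1.36 and 2.85 at basal and 103.6 and 151.6 at 24 h, a log2 ratio of 5.37. Pol II was 29.4, 23.7 and 28.2 at 24 h and at most 0.80 in the 4 basal libraries, with limma adjusted p = 0.0036 after Benjamini-Hochberg adjustment. The groups did not overlap in Pol II, and in H3K27ac the choice of the site required it.

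In an intron of Ttc27, which encodes a repeat protein, at chr17:74723279-74723479, H3K27ac was 3.39 and 0 at basal and 85.7 and 99.8 at 24 h, and Pol II rose with an adjusted p of 0.0308 (limma, Benjamini-Hochberg). The other 3 of the 5 largest gains lay near Ang6, a close relative of Ang5, 480 kb from Rps24 and in an intron of Anks1. All 5 passed the time-course limma at 24 h with Benjamini-Hochberg adjusted p of 0.00245 or less, and at 6 h with 0.00366 or less. These 5 gains and the 5 losses below were chosen by the change between the same basal and 24 h libraries. Their p-values at 24 h are therefore no separate support, and those at other times share the basal libraries.

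**Figure D4:**
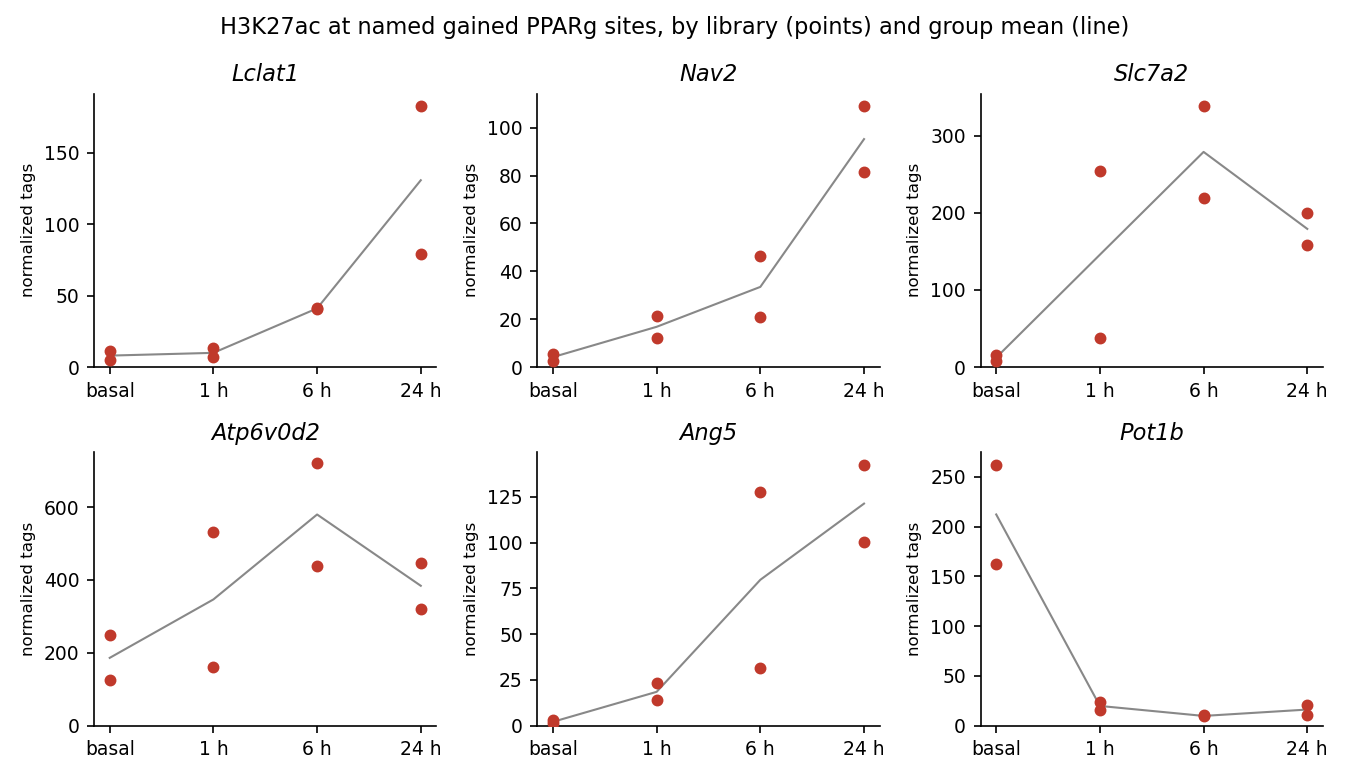
H3K27ac in normalized tags (linear axes that start at 0 and differ between panels) at basal and after 1, 6 and 24 h of IL-4 at 6 of the named sites, with a point per library and a line through the means of 2 libraries. At Lclat1, Nav2 and Ang5 the means climb to 24 h, at Slc7a2 and Atp6v0d2 they are highest at 6 h, and at Pot1b they drop from 162.1 and 262.4 at basal to 16.2 and 23.4 at 1 h.

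Of the 5 largest losses of H3K27ac, 4 passed the time-course limma at 1 h and Igfbp4 did not (Benjamini-Hochberg adjusted p = 0.182). Near Pot1b, a telomere protein, H3K27ac was 162.1 and 262.4 at basal, 16.2 and 23.4 at 1 h, 9.24 and 10.4 at 6 h, and 21.2 and 11.2 at 24 h, and the time-course limma gave adjusted p of 0.00877, 0.000582 and 0.00278 after Benjamini-Hochberg adjustment. In an intron of Sh3pxd2a, a scaffold protein of podosomes, it was 276.1 and 380.8 at basal and 22.4 and 54.7 at 1 h. All 4 libraries at later times stayed between 24.9 and 41.6 there. At Igfbp4, a binding protein of insulin-like growth factors, the site lay 253 bp from the start, and Pol II was 76.1, 76.2, 150.1 and 103.3 at basal and 13.3, 30.9 and 32.1 at 24 h (limma, Benjamini-Hochberg adjusted p = 0.0439). Pilrb2 and Rbm38 completed the 5 largest losses.

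Genes of lipid and macrophage lists had a site more often than coding genes in general. A gene was linked to a site in its body or, within 100 kb, by the nearest coding start, and 9808 of 21924 coding genes (44.7%) had 1, or 59.7% of the 15568 that had an open region by the same link. The share was 28 of 34 for lipid uptake, storage and oxidation, 19 of 22 for cholesterol efflux and LXR targets, 22 of 29 for nuclear receptors and coregulators, 33 of 36 for alternative activation, 27 of 32 for inflammatory genes and 21 of 28 for lysosomal genes. The lists were chosen as genes of macrophages, so high shares in all 6 say nothing particular to lipids. Abca1 and Mrc1 had 11 sites each and Pparg itself 10. Genes without a site included Pdk4 of the lipid list, Nr1h3, which encodes LXRα, Ccl24 and Cxcl10.

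**Figure D5:**
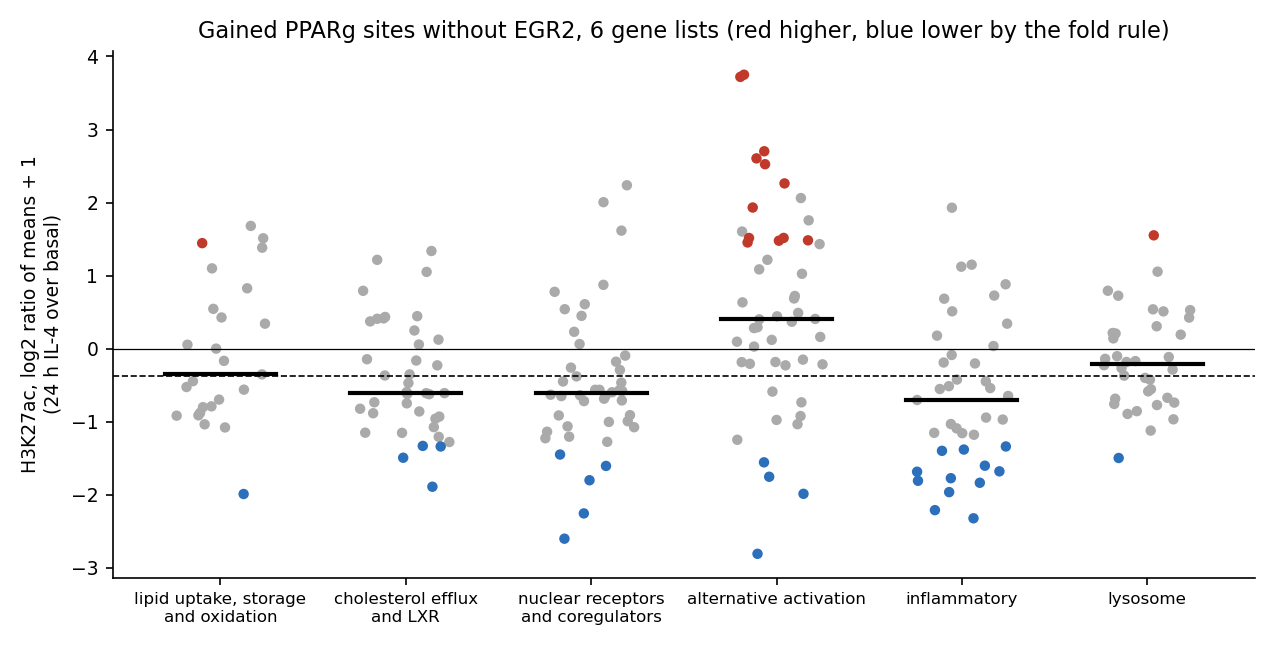
H3K27ac log2 ratio of means plus 1 at 24 h over basal, with a point for each open region at sites linked to the 6 gene lists, red higher and blue lower by the fold rule, a bar for the median of each list and a dashed line for the median of all 11397 regions at these sites (−0.38). The alternative activation list alone has its median above 0 (0.41).

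The linked regions were counted by list. Of 49 regions linked to alternative activation genes, 12 were higher and 4 lower by the fold rule (median log2 ratio 0.41), and 15 were higher in Pol II. The 12 regions with higher H3K27ac were linked to 8 genes, and 4 of these regions to Socs1 alone. Of 39 regions linked to inflammatory genes 0 were higher and 12 lower (median −0.70), and of 25 at lipid genes 1 was higher and 1 lower (median −0.35). Cholesterol genes had 0 higher and 4 lower of 39 (median −0.61), nuclear receptors 0 and 5 of 44 (median −0.61), and lysosomal genes 1 and 1 of 36 (median −0.20). Over all 11397 regions the shares were 3.43% higher and 10.0% lower, against 24.5% and 8.16% for alternative activation, 30.8% lower for inflammatory genes, and 10.3% and 11.4% lower for the cholesterol and nuclear receptor lists. No region of the lists passed the unpaired limma fit of the basal and 24 h libraries alone in H3K27ac, and no test over a list was made. With median-ratio scaling, chosen after the data were seen, the counts were 15 higher and 3 lower for alternative activation, 1 and 8 for inflammatory, 2 and 1 for lipid, 2 and 1 for cholesterol, 0 and 3 for nuclear receptor and 2 and 0 for lysosomal genes.

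Among the alternative activation genes, the site with the highest PPARg peak (94.1) lay 11211 bp from Slc7a2, a transporter of arginine. H3K27ac there was 16.3 and 8.56 at basal, 254.3 and 37.2 at 1 h, 338.1 and 219.7 at 6 h, and 199.5 and 158.8 at 24 h. It rose at each time by the time-course limma, with Benjamini-Hochberg adjusted p of 0.0217, 0.00217 and 0.0099. All 8 lists of STAT6, PU1 and CEBPb had a peak at it.

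The site at Mgl2, a lectin of alternatively activated macrophages, lay 1033 bp from the start. H3K27ac was 10.2 and 30.7 at basal and 71.3 and 173.3 at 24 h, and Pol II rose with a log2 ratio of 3.15 (limma, Benjamini-Hochberg adjusted p = 0.0254). Egr2 itself had a site 635 bp from its start, 704 bp from the nearest EGR2 peak centre, with H3K27ac of 47.5 and 30.7 at basal and 176.6 and 127.3 at 24 h. Socs1, an inhibitor of cytokine signalling, was linked to 4 regions with higher H3K27ac between 40.0 and 90.4 kb away, and Irf4, a STAT6 target gene, to 2. Pdcd1lg2, Cdh1 and Mmp12 had 1 each. The Socs1 site 85039 bp away and the Irf4 site 85250 bp away lay in introns of other genes. The Irf4 site 39325 bp away lay 444 bp from the nearest EGR2 peak centre, so its region may hold an EGR2 peak. Lower regions were linked to Alox15, Cd83, Ch25h and Cd163. The high PPARg sites of this list at Mrc1 (83.7), the mannose receptor, and Klf4 (76.1) had no open region near them, and at Tgm2 (84.6), a transglutaminase, and Socs2 (72.3) H3K27ac stayed at or below 11.2 normalized tags in every basal and 24 h library.

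The lipid genes had high PPARg peaks with no H3K27ac call. Cpt1a, which imports fatty acids into mitochondria, had a site of height 130.3 in an intron with H3K27ac of 2.04 and 2.85 at basal and 1.70 and 18.4 at 24 h. Pltp (75.1), which transfers phospholipids, held 678.4 and 663.9 at basal and 398.1 and 311.8 at 24 h, a fall short of the fold rule. Acsl1 (63.7), which activates fatty acids, Lpl (48.5), which releases them from lipoproteins, and Plin2 (48.5), which coats lipid droplets, had log2 ratios of −0.91, −0.70 and −1.04. The calls of this list were another region of Acsl1, lower with 216.4 and 298.1 at basal and 61.1 and 66.9 at 24 h, and Olr1, a scavenger receptor, higher with 6.78 and 6.42 against 14.4 and 24.9.

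Of the regions of cholesterol genes 4 of 39 (10.3%) were lower, close to the 10.0% of all regions at the sites, and none was higher, while median-ratio scaling gave 2 higher and 1 lower. Lipa (114.1), which frees cholesterol in lysosomes, held 657.4 and 583.3 at basal and 433.8 and 387.2 at 24 h. The 4 lower regions were 2 of Abca1, the exporter of cholesterol, and 1 each of Apoc2 and Apoe, and that of Apoe held a DR1 with 1 mismatch. At 1 of the Abca1 regions H3K27ac was 430.8 and 492.0 at basal and 116.3 and 131.3 at 24 h. Insig1 (88.4), Mylip (51.4) and Srebf1 (39.0) had log2 ratios of −0.93, 0.79 and −0.16. Among receptors, the sites at Rara (60.9) and Nr1d1 (40.9) had log2 ratios of −0.72 and −1.80, and the 5 lower regions of the list were linked to Nr1d1, Nrip1, Ppard, Nr3c1 and Rxra.

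Inflammatory genes had lower regions at 8 genes. Nlrp3, the sensor of an inflammasome, had 3. At the 1 that lay 867 bp from its start H3K27ac was 837.2 and 673.8 at basal and 222.4 and 199.5 at 24 h, and Pol II fell by 2.62 on the log2 scale (limma, Benjamini-Hochberg adjusted p = 0.00658). Il1b and Nfkb1 had 2 each, and Socs3, Nfkbiz, Tlr2, Irf8 and Il18 1 each. The 2 Il1b sites start at 129380297 and 129380790 on chr2, so their 1000 bp regions may share tags and may not be separate falls. The Nfkb1 site 4 bp from its start lay 349 bp from the nearest EGR2 peak centre, so its region may hold an EGR2 peak. The highest PPARg sites of the list, at Tnfaip3 (82.7), Il1a (80.8), Il1b (79.9) and Tlr4 (62.8), had log2 ratios of −0.09, −0.70, 0.88 and 0.73 with no call, and that of Il18 (67.5) had no open region.

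Among lysosomal genes Atp6v0d2, a subunit of the proton pump, had the highest PPARg peak (129.3). Its Pol II rose from 103.6, 57.8, 43.4 and 44.6 at basal to 452.9, 280.8 and 211.6 at 24 h (log2 ratio 2.32, limma Benjamini-Hochberg adjusted p = 0.0162). H3K27ac was 246.3 and 123.4 at basal and 448.2 and 321.6 at 24 h, above basal in both libraries but under the fold rule. Laptm5 (76.1), Gpnmb (74.2) and Neu1 (45.6) had log2 ratios of −0.42, −0.58 and −0.89. The calls of the list were a region of Tfec, a transcription factor, with 27.8 and 24.2 at basal and 76.4 and 80.1 at 24 h, and a lower region of Lamp2. The Tfec site lay 281 bp from the nearest EGR2 peak centre, so its 1000 bp region may hold an EGR2 peak.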

How the data were processed

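Samples were grouped by the labels. By the methods of the study, reads were mapped with bowtie2 to the genome of their strain, moved to mm10 positions with MMARGE and counted with HOMER, and IDR was used to select peaks found in replicate libraries. STAT6, PPARg and EGR2 chromatin was crosslinked with DSG and formaldehyde, the rest with formaldehyde, and PPARg was precipitated with a pair of antibodies. The deposited values of marks and Pol II are signal, tags in 1000 bp scaled by the authors to 10000000 tags per library. The deposited lists give 200 bp peaks with a peak height (count of tags) and a score, the latter the authors' own and used only to order peaks of equal height. The methods call ChIP replicates biological but name no separate animals or cultures, so p-values measure the spread between these libraries. Library totals ran from 7796479 to 29050468 tags in C57, and 4 value columns that matched no sample were left out. Tags times the library total over 10000000 gave whole reads (within 0.1 read) for 100% of 2690288 values.

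Peaks were intersected with bedtools 2.31.1 (1 bp), and each site was tied to the nearest open region centre within 500 bp. Regions were tested with limma 3.58.1 (R 4.3.3, lmFit, eBayes with trend) on log2(normalized tags + 1) over the whole table, with Benjamini-Hochberg adjusted p under 0.05. The pseudocount of 1 understates changes of low regions. edgeR 4.0.16 (quasi-likelihood) and DESeq2 1.42.0 on recovered reads were alternatives. Unpaired limma, edgeR and DESeq2 were tested on simulated data, and the paired and other alternative limma fits were not. Fold thresholds followed the study's methods, which ask for both H3K27ac and Pol II. Replicate numbers were taken to pair the Pol II libraries, since deviations from group means correlated at over 0.1 in each of the 3 pairs (0.19, 0.30 and 0.40), though 3 combinations of different numbers also correlated, at 0.23, 0.27 and 0.45. Same-number libraries of H3K27ac, H3K4me2 and H3K4me3 also passed 0.1, at 0.73, 0.42 and 0.73, on 2 pairs each. The main fits of Pol II and of these marks were all unpaired, and the paired fits of the marks are given as alternatives. Genes came from the GENCODE annotation of mm10. Intervals are exact binomial at 95% and cover counting error only. Python 3.11.15, pandas 2.3.3, numpy 2.4.6, scipy 1.17.1 and matplotlib 3.10.9 were used. The sites and the gene lists were chosen with earlier results of these data known. Sites are named for the 5 highest PPARg peaks, the 5 largest rises and falls of H3K27ac past the fold rule without overlap of replicates, and the 5 genes per list with the highest peak. Some results for single genes are not reported here. The regions called in each list, and genes named without a site, were named after their values were seen.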

Additional observations from a re-analysis of the deposited data

Results flagged for a closer look

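At 5 of 40 sets of 4 basal Pol II libraries at named sites, 1 library lay far from the other 3 (Dixon's test, which chance meets in about 1 of 20 sets). Basal replicate 1 was the high one at Slc7a2, with 30.57 normalized tags against at most 3.21, and at Il1a, with 38.06 against at most 4.05. Basal replicate 3 was high at the site in Scamp2 nearest Ulk3, with 21.97 against at most 12.04, and basal replicate 4 was high near Rps24, with 3.04 against at most 0.80, and low at Rara, with 53.67 against at least 106.7. The part of these libraries in the Pol II results at these sites was not tested.

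At the site 77998 bp from Mylip, 1 of 39 regions compared over the times, H3K27ac was 6.11 and 7.84 at basal, with means of 2.88 at 1 h, 4.585 at 6 h and 12.22 at 24 h. Both libraries lay below both basal libraries at 1 h and at 6 h and above both at 24 h. The difference between the times was not tested.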

How the results depend on the processing

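Of 302 values recomputed under alternatives, 136 stayed near the reported value (within 1.5 times of a count, or the interval of a share) and 166 did not. They are counts and shares, which carry no sign, but the balances of H3K27ac and H3K4me2 at 24 h turned from more lower to more higher regions under median-ratio scaling. Both balances turned over all open regions too. Limits: 2 libraries a group, 1 list per condition, and scaling to library totals that leaves unequal shares of tags in regions. For H3K27ac at 24 h by the fold rule, median-ratio scaling gave 603 higher and 503 lower regions, no filter 777 higher and a fold of 2 2230 lower. For Pol II a pseudocount of 5 gave 113 higher and 75 lower and a fold of 2 345 and 526. For H3K4me2 a pseudocount of 5 gave 11 and 34, median-ratio scaling 135 and 2, no filter 79 higher and a fold of 2 53 and 1602. For H3K4me3 a pseudocount of 5 gave 14 lower, no filter 750 and 45 and a fold of 2 90 and 66. In the time course median-ratio scaling gave 661 higher and 836 lower at 1 h and 565 lower at 24 h. Leaving out each library in turn gave 368 to 508 higher and 1036 to 1614 lower for H3K27ac, 180 to 306 and 204 to 328 for Pol II, 19 to 62 and 78 to 2384 for H3K4me2, and 57 to 85 and 24 to 63 for H3K4me3. In the time course it gave 139 to 568 higher and 2532 to 5409 lower at 1 h (139 and 5409 without 1 h replicate 1), 642 to 892 and 1221 to 2057 at 6 h, and 480 to 639 and 1095 to 1772 at 24 h.

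Calls of the test by limma were 0 for H3K27ac, where edgeR made 53 and DESeq2 386, 44 for Pol II (median-ratio scaling 69, edgeR 71, DESeq2 193), 16 for H3K4me2 (median-ratio scaling 25, a filter 10, edgeR 35) and 0 for H3K4me3 (edgeR 26, DESeq2 42). In the time course they were 1575 at 1 h (median-ratio scaling 407, edgeR 387, DESeq2 903), 770 at 6 h (DESeq2 1285) and 217 at 24 h (DESeq2 654). With the replicate block, limma called 4668 for H3K27ac, 100 for Pol II, 34 for H3K4me2, 1362 for H3K4me3 and 3861, 1975 and 1136 at 1, 6 and 24 h. Except for Pol II, the share of such calls over all open regions was not computed, so these counts say nothing particular to the sites. The pairing of the marks rests on 2 pairs, whose deviations correlated at 0.73, 0.42 and 0.73 for H3K27ac, H3K4me2 and H3K4me3, and only shares a number. Leaving out each library gave 0 to 43 calls for H3K27ac, 0 to 132 for Pol II, 0 to 5909 for H3K4me2, 0 for H3K4me3, and 34 to 3996, 40 to 1420 and 93 to 752 at 1, 6 and 24 h, with a lone library assumed to vary like the other groups. The causes were not tested.

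Among the 19544 highest PPARg peaks of the list 8486 were sites. Over the upper 0.5 of the sites by peak height, overlap at 24 h was 41.6% with STAT6, 56.1% with PU1 and 32.5% with CEBPb, and over all sites with at least 100 bp shared it was 30.1%, 42.4% and 22.5%. DR1 was found at 8.55% in 100 bp, at 13.7% of the sites with the higher peaks and at 3.63% with at most 1 mismatch.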
